A study of Homo sapiens with 12 samples.

Results

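The comparison described here is between 6 libraries of antibody-treated co-cultures: 3 at 1 µg/ml of antibody and 3 at 0.01 µg/ml, paired by antibody arm, out of 12 libraries in the series. The arms were anti-PD1 with anti-LAG3 (the combination), anti-LAG3 with isotype, and anti-PD1 with isotype, where isotype is a control antibody that recognises neither receptor, and a dose is that of each of the antibodies in the mix. The isotype arm at 1 and 0.01 µg/ml, 2 libraries, stands beside them as the background of the dose step, and the 3 antibody libraries at 0.1 µg/ml were kept apart to see where a middle dose lay. The libraries and genes were chosen by the rule that high and low dose are set against each other within each arm, and that a gene of interest moves the same way in all 3. The anti-PD1 antibody was MK3475 and the anti-LAG3 antibody MK4280.

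Every library, isotype included, came from a 24 h co-culture of JurkatLAG3+PD1+, a human T cell leukaemia line described as carrying both receptors, with Raji-PDL1, a B cell line from a human Burkitt lymphoma, labelled as carrying PDL1, the ligand of PD1. The Raji cells had been loaded with the superantigen SED at 100 ng/ml, and wells of 100000 cells of each line were pooled into a pellet of 800000 cells for each condition. Each condition has 1 library, and both cell lines are read together, so that fewer cells of a line and less RNA per cell cannot be told apart. The 3 arms stand in as the repeats of the dose step, and a p-value speaks of the spread among these 6 or 12 libraries, possibly technical, not of repeated cultures.

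A superantigen bridges MHC class II on the B cell and the T cell receptor (TCR) on the T cell, and so starts TCR signalling without a specific peptide. PD1, when bound by PDL1, recruits phosphatases that damp signalling from the TCR and CD28, and LAG3, which binds MHC class II among other ligands, also restrains it, and antibodies that block either receptor can release TCR signalling. Within minutes to hours of TCR triggering, T cells switch on immediate early genes such as EGR1, a zinc finger transcription factor, and FOS, a subunit of AP-1. The surface receptor CD69, costimulatory receptors and effector genes such as granzymes and chemokines are known to follow, while immature T lineage genes such as the RAG recombinase are known to be shut off by TCR signals.

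Promoter sequences are shown for 4 genes of this account: EGR1, 1 of the 2 activation markers followed throughout, GZMA, a granzyme gene that rose, RAG1, a gene that fell, and XCL2, a chemokine gene with 1 of the largest steps. Each is the stretch of 250 bases just before the gene's RefSeq start in GRCh38.p14, 5′ to 3′ on the gene's strand. Capitals mark 2 matches to the SRF CArG box in EGR1, and the other 3 stretches hold none of the motifs searched.
EGR1, chr5:138465229-138465478, plus strand: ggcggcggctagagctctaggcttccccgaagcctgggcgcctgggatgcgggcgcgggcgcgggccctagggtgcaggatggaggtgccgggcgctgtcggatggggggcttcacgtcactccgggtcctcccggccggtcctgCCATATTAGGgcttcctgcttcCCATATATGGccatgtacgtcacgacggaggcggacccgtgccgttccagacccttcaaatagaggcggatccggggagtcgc
GZMA, chr5:55102396-55102645, plus strand: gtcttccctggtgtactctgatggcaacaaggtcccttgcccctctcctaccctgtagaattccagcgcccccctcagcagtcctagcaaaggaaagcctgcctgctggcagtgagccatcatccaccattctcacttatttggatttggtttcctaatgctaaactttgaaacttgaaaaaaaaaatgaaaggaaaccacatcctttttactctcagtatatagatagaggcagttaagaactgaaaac
RAG1, chr11:36510103-36510352, plus strand: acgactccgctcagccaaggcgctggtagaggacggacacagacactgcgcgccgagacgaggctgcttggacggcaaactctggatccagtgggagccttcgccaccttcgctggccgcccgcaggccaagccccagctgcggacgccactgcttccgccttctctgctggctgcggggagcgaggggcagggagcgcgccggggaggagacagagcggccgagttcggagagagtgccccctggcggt
XCL2, chr1:168543998-168544247, minus strand: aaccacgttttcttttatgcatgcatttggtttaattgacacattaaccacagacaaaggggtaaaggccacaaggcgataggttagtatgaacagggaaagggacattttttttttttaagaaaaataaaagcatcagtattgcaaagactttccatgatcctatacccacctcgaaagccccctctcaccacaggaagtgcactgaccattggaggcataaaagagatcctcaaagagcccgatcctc
The motifs searched on both strands were CRE (TGACGTCA), AP-1 (TGANTCA), EGR (GCGTGGGCG and GCGGGGGCG), the SRF CArG box and the NF-kB motif, where N is any base, and a stretch may match more than 1 of them. The 2 CArG boxes of EGR1 lie at -105 to -96 and -83 to -74 from the gene's start, and NAB2, the gene of a corepressor of EGR factors, holds GCGGGGGCG at -62 to -54. Of the 46 genes that rose, 28 had a promoter entry, as did 9964 of all genes tested. AP-1 was found in 3 of the 28 (10.7%, against 3.83% of the 9964) and the NF-kB motif in 5 (17.9%, against 11.8%). GCGGGGGCG was found in 1, NAB2 (3.57%, against 7.79%), and CRE, GCGTGGGCG and the CArG box in none (against 2.89%, 1.19% and 0.984%). Of the 9 with an entry among the 10 genes that fell, 1 (11.1%), MKI67, held GCGTGGGCG, and none held another motif. These are matches of letters in a window, not sites at which binding was measured.

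The 12 libraries held 23593973 to 36581754 counts. Depth at 1 µg/ml relative to 0.01 µg/ml was 0.899 times for the combination, 1.21 times for anti-LAG3, 1.2 times for anti-PD1 and 1.34 times for isotype. Levels are given as CPM, the counts of a gene scaled to the size of its library. Where a gene had no count, its level could still be as high as 3 counts, or 0.0838 to 0.128 CPM by library, a limit for counting error only. PDCD1, the gene of PD1, was read at 203 to 228 CPM and CD274, the gene of PDL1, at 82.6 to 97.7 CPM in the 6 libraries, while LAG3 had 0 to 2 counts. IL2 and IFNG had 0 to 4 counts. All 24 Jurkat T markers and all 29 Raji B markers were measured, and LYZ, CD14, CSF1R, EPCAM, HBB and KLRD1, markers of cells that neither line represents, had at most 7 counts in any library. COL1A1, a collagen gene of fibroblasts, had 135 to 295 counts and PECAM1, an adhesion gene of endothelium and some leukocytes, 930 to 1471 counts.

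Few genes passed the paired test of the 100-fold dose step. That test has 2 residual degrees of freedom, so the count is of genes called, not of genes that moved. Of 14895 genes tested, 56 (0.376%) changed between 1 and 0.01 µg/ml at an adjusted p under 0.05 by edgeR's quasi-likelihood test with arm as a block: 46 (0.309%) rose and 10 (0.0671%) fell. They included genes of early activation (IER3, FOS, NAB2), chemokines (XCL1, XCL2), granzymes (GZMB, GZMA), the costimulatory receptor ICOS and guanylate-binding proteins (GBP2, GBP5) among the rises, and RAG1 and RAG2 among the falls. The fold was 2 or more in 17 of the 46 rises, and 3 of the 10 falls went to 0.5 times or less. An unadjusted p under 0.05 was reached by 1177 genes (7.90%).

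All 56 moved the same way in the 3 arms, which a block test over arms favours. Without any test, 4306 of all genes (28.9%) had the same sign of the step in the 3 arms, 2227 (15.0%) upward and 2079 (14.0%) downward. The median step of the 46 rises, on the log2 CPM scale, was 0.89 in the combination, 0.47 in anti-LAG3 and 0.57 in anti-PD1, against 0.06 in isotype. The median of the 10 falls was -0.82 in the combination, -0.38 in anti-LAG3 and -0.41 in anti-PD1, against -0.01 in isotype, and the median of all genes lay within 0.01 of 0 in each arm. The combination had the largest of the 3 steps in 47 of the 56 genes, anti-LAG3 in 5 and anti-PD1 in 4. In 52 of the 56 the step of every antibody arm went further in its direction than the isotype step, and the exceptions were MKI67, SPEN, TRBC1 and ID3. That pattern of equal sign and larger size than isotype, taken over all genes with no test, was met by 2752 (18.5%). The call used the antibody libraries and not isotype, so it also favours antibody steps that go beyond the isotype step. The share over all genes, which were not selected, is therefore not a like baseline.

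The number of calls depends on the pairing and on the isotype step. Without the arm as a block 4 genes were called, IER3, ITM2A, TRBV12-3 and RAG1, and after subtracting the isotype step 6 were called, none of them among the 56, of which 54 kept their sign. DESeq2 called 28 of the 56, and among those it did not call were RAG1 (adjusted p = 0.0523), GBP5 (0.12), DGKA (0.24), C1orf228 (0.243), XCL2 (0.383) and HIST1H4B (0.631), p-values by DESeq2. The high and low libraries of the antibody arms overlapped in 5 of the 56: GALNT2, MKI67, PLCH1, SPEN and SYTL3. The call used these same libraries and so favours genes without overlap, and the share over all genes was not computed. Calls also moved when an arm was left out: 128 genes were called without the combination, 63 without anti-LAG3 and 54 without anti-PD1, and 17 of the 56 were called in all 3 of these fits, namely XCL1, XCL2, SLC6A13, GZMB, ICOS, COL6A3, FOS, IER3, FGFR1, ETV5, GZMA, NAB2, RGS3, SDCBP, ITM2A, RAG1 and RAG2.

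**Figure D1:**
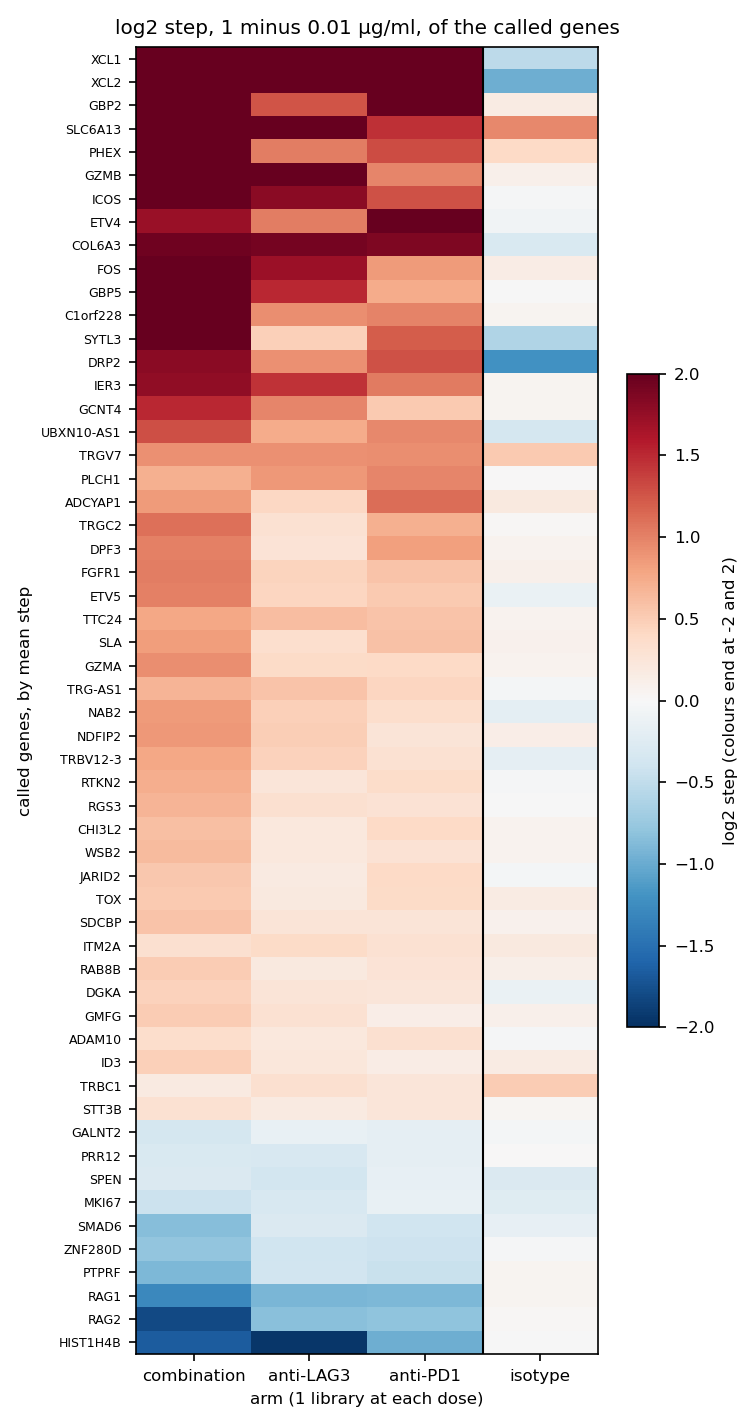
Heat map of the log2 CPM step, 1 minus 0.01 µg/ml, of the 56 genes called by the paired test, ordered by mean step, with 1 column for each antibody arm and isotype at the right; each cell rests on 1 library at each dose. Red is higher at 1 µg/ml and blue lower, colours end at -2 and 2, and the median step of the rises is 0.89 in the combination against 0.06 in isotype. The genes were picked by their antibody steps, in which isotype took no part.

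CD69 and EGR1, the activation markers, had their higher level at 1 µg/ml in every antibody arm and were flat under isotype, yet neither passed the paired test. CD69 (chr12:9752486-9760901, GRCh38, minus strand) stood at 52.1 CPM in the combination, 28.1 in anti-LAG3 and 25.9 in anti-PD1 at 1 µg/ml, against 13.6, 12.1 and 11.5 CPM in the same arms at 0.01 µg/ml. The isotype libraries had 11.2 CPM at 1 µg/ml and 12.2 at 0.01 µg/ml. The high and low libraries of the antibody arms did not overlap, and the mean log2 step was 1.46 ± 0.18 (SE, 6 libraries), a fold of 2.76, with an adjusted p of 0.101 by edgeR's quasi-likelihood test.

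EGR1 (chr5:138465490-138469315, plus strand) stood at 82.4 CPM in the combination, 52.1 in anti-LAG3 and 33.4 in anti-PD1 at 1 µg/ml, against 19.7, 16.7 and 16.2 CPM at 0.01 µg/ml. Isotype gave 18.2 CPM at 1 µg/ml and 18.5 at 0.01 µg/ml. The lowest high-dose library, that of anti-PD1, was still above all 3 low-dose libraries, and the mean step was 1.61 ± 0.26 (SE), a fold of 3.06, with an adjusted p of 0.441 by edgeR's quasi-likelihood test. In the paired test a step that differs between arms counts as spread. Left without the combination pair, both passed (CD69 1.19, adjusted p = 1.92e-35, and EGR1 1.36, adjusted p = 5.12e-60, by edgeR's quasi-likelihood test). A fit without a pair has fewer residual degrees of freedom than the 2 of the main test. Its p-values therefore rest mostly on spread borrowed from other genes, and their small size is no measure of how well the step repeats. EGR1 also passed without anti-PD1 (1.86, adjusted p = 2.08e-08 by edgeR's quasi-likelihood test), and DESeq2 called both. Neither passed without anti-LAG3 (adjusted p = 0.0678 for CD69 and 0.805 for EGR1), without the arm as a block (0.631 and 0.685), after subtracting the isotype step (0.363 and 0.63) or among genes of at least 10 CPM only (0.186 and 0.476), and CD69 did not pass without anti-PD1 (0.0697), all by edgeR's quasi-likelihood test.

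**Figure D2:**
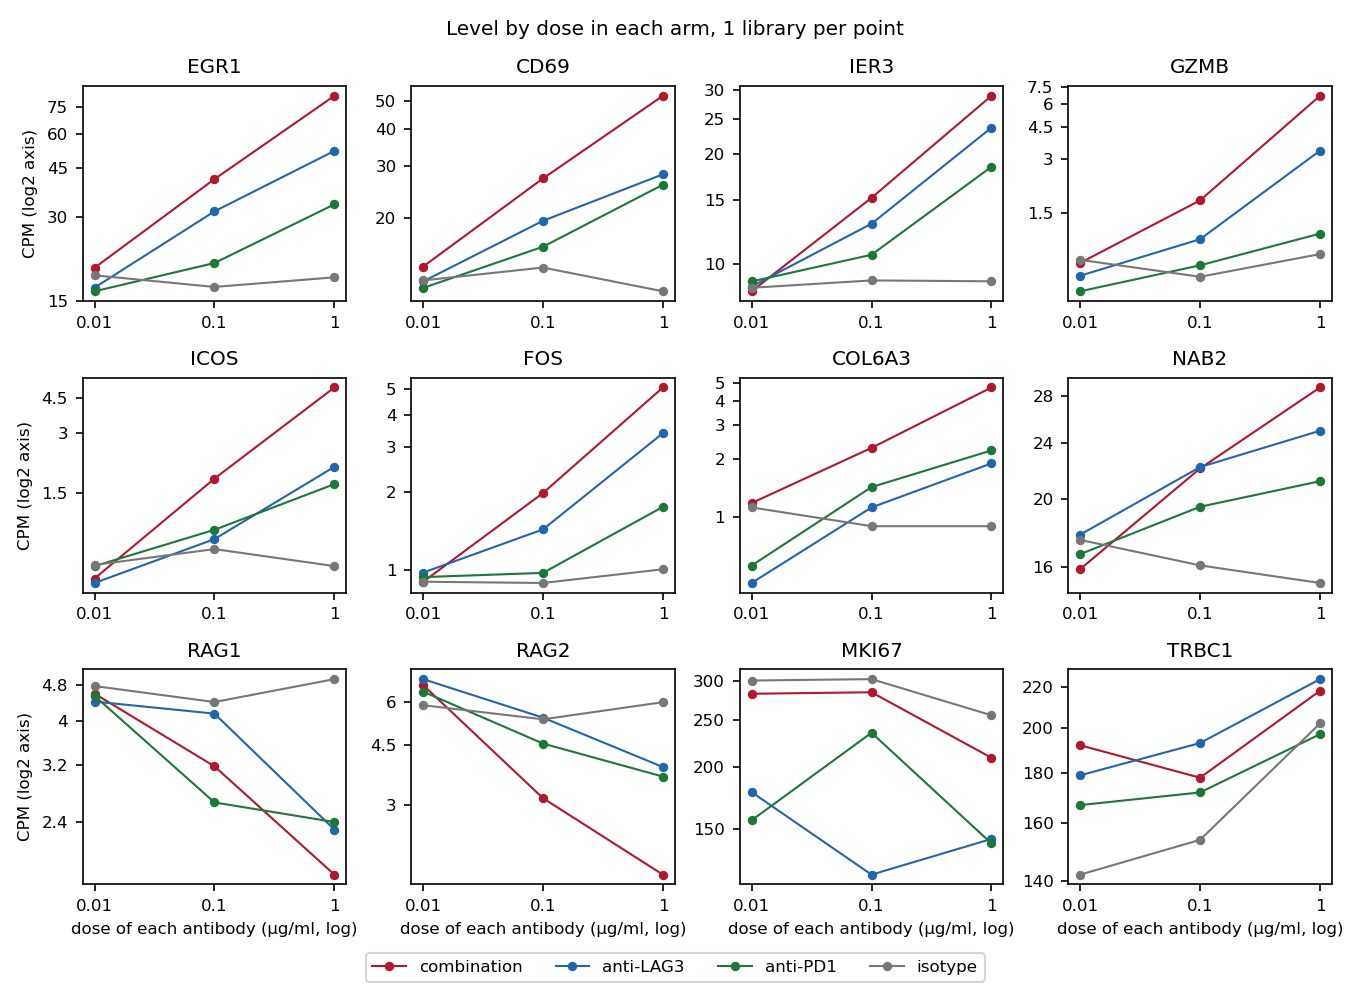
Level in CPM (log2 axis, with its own range in each panel) of 12 genes against the dose of each antibody (log axis), 1 library per point, with lines joining the libraries of an arm. EGR1, CD69 and IER3 climb in all 3 antibody arms and stay level in isotype, RAG1 and RAG2 descend in the antibody arms, and MKI67 and TRBC1 move in isotype as well.

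Among 41 tested TCR-induced early genes, 3 rose (IER3, FOS and NAB2) and none fell, against 0.309% of all genes that rose. A step of the same sign in the 3 arms was upward in 28 of the 41 and downward in 3, against 15.0% and 14.0% of all genes. The median step of the 41 was 0.21, against -0.001 over all genes. IER3, an immediate early gene that modulates survival signalling and is also a target of NF-kB (chr6:30743199-30744554, minus strand), had 29 CPM in the combination, 23.7 in anti-LAG3 and 18.5 in anti-PD1 at 1 µg/ml, against 8.41, 8.67 and 8.95 CPM at 0.01 µg/ml. Its isotype libraries had 8.96 CPM at 1 µg/ml and 8.6 at 0.01 µg/ml, as low as the low-dose antibody libraries. IER3 was also the 1 call among 25 NF-kB target genes (4%, against 0.309% of all genes). The step was 1.44 ± 0.12 (SE), a fold of 2.71 (adjusted p = 6.03e-05 by edgeR's quasi-likelihood test).

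FOS had 5.09 CPM in the combination, 3.39 in anti-LAG3 and 1.76 in anti-PD1 at 1 µg/ml, against 0.903, 0.98 and 0.942 CPM at 0.01 µg/ml. It rose by a log2 step of 1.81 ± 0.26 (SE; adjusted p = 0.0018 by edgeR's quasi-likelihood test), and its isotype levels of 1.01 CPM at 1 µg/ml and 0.904 at 0.01 µg/ml were close to each other. NAB2, a corepressor that binds EGR factors, had 28.8, 25 and 21.2 CPM at 1 µg/ml of the combination, anti-LAG3 and anti-PD1, against 15.9, 17.8 and 16.7 CPM at 0.01 µg/ml. It rose 1.48-fold, while its isotype library at 1 µg/ml (15.2 CPM) was the lower of the 2 (17.5 CPM at 0.01 µg/ml). EGR2 and EGR3, relatives of EGR1 that are targets of NFAT in T cells, had steps in the same order of arms without passing. EGR3 had 17.2, 10.7 and 4.94 CPM at 1 µg/ml of the combination, anti-LAG3 and anti-PD1, against 1.46, 1.85 and 1.67 CPM at 0.01 µg/ml (2.66 ± 0.40, SE; adjusted p = 0.237 by edgeR's quasi-likelihood test). EGR2 had 10.7, 6.18 and 2.79 CPM at 1 µg/ml, against 1.74, 1.7 and 1.84 CPM at 0.01 µg/ml (1.81 ± 0.40, SE; adjusted p = 0.343 by edgeR's quasi-likelihood test). Isotype had 2.04 CPM of EGR3 at 1 µg/ml and 1.92 at 0.01 µg/ml. Of EGR2 it had 2.15 and 1.63 CPM, a step of 0.39 beside 0.58 in anti-PD1.

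The largest steps belonged to the chemokines XCL1 and XCL2, lymphotactins that attract dendritic cells carrying the receptor XCR1, and both were nearly silent at low dose. XCL1 lies at chr1:168576473-168582077 on the plus strand and XCL2 at chr1:168540765-168543997 on the minus strand. XCL1 had 383 counts (15 CPM) in the combination, 42 (1.33 CPM) in anti-LAG3 and 17 (0.6 CPM) in anti-PD1 at 1 µg/ml, against 3, 0 and 1 counts at 0.01 µg/ml. XCL2 had 175, 19 and 21 counts at 1 µg/ml of the combination, anti-LAG3 and anti-PD1, against 0, 2 and 0 counts at 0.01 µg/ml. Isotype gave at most 5 counts of either gene at any dose. Both rose (adjusted p = 2.69e-09 for XCL1 and 0.000305 for XCL2 by edgeR's quasi-likelihood test), and no fold is given, because at so few low-dose counts it rests on the prior count of the fit. The 2 genes are near-identical copies, so reads may be shared out between them. Of 12 tested cytokines and chemokines these were the only calls (16.7%, against 0.309% of all genes), and the median step of the list was 0.09.

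Granzymes, proteases of cytotoxic granules, were the 2 calls among 11 tested cytotoxic and death-ligand genes (18.2%, against 0.309% of all genes). The median step of this list, 0.31, was the highest of the lists. By arm it was 0.48 in the combination, 0.04 in anti-LAG3 and 0.25 in anti-PD1, against 0.18 in isotype. GZMB had 6.69 CPM in the combination, 3.33 in anti-LAG3 and 1.16 in anti-PD1 at 1 µg/ml, against 0.799, 0.679 and 0.557 CPM at 0.01 µg/ml. It rose 5.18-fold (adjusted p = 0.000672 by edgeR's quasi-likelihood test), and isotype had 0.894 CPM at 1 µg/ml and 0.831 at 0.01 µg/ml. GZMA had 33.7, 22.8 and 23.4 CPM at 1 µg/ml of the combination, anti-LAG3 and anti-PD1, against 17.6, 17.5 and 17.7 CPM at 0.01 µg/ml. It rose 1.49-fold (adjusted p = 0.0212 by edgeR's quasi-likelihood test), and isotype had 16.5 CPM at 1 µg/ml and 15.7 at 0.01 µg/ml. At 0.1 µg/ml GZMA had 18.5, 19.6 and 15.2 CPM in the same arms, the last below the low dose. It was not called with a length correction (adjusted p = 0.169) or among genes of at least 10 CPM only (0.0561). Nor was it called in a common slope over 3 doses (0.316), all by edgeR's quasi-likelihood test. DESeq2 did call GZMA.

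ICOS, a costimulatory receptor that appears on activated T cells, was the 1 call among 26 tested checkpoint and costimulatory genes (3.85%, against 0.309% of all genes). It had 5.09 CPM in the combination, 2.03 in anti-LAG3 and 1.66 in anti-PD1 at 1 µg/ml, against 0.556, 0.528 and 0.642 CPM at 0.01 µg/ml, and isotype had 0.642 CPM at 1 µg/ml and 0.651 at 0.01 µg/ml. The fold was 4.85 (adjusted p = 0.000895 by edgeR's quasi-likelihood test). The guanylate-binding proteins GBP2 and GBP5, interferon-inducible GTPases of cell-autonomous defence, were the 2 calls among 35 tested interferon response genes (5.71%). The median step of that list was 0.04. GBP2 had 97, 23 and 24 counts at 1 µg/ml of the combination, anti-LAG3 and anti-PD1, against 4, 7 and 3 counts at 0.01 µg/ml. GBP5 had 3.79, 1.43 and 1.41 CPM at 1 µg/ml, against 0.73, 0.452 and 0.813 CPM at 0.01 µg/ml, and rose 3.21-fold. GBP2 was not called without anti-PD1, and GBP5 was not called without anti-LAG3 or without the combination.

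Of 9 TCR chain and CD3 genes 2 (22.2%) rose, TRBV12-3 and TRBC1, against 0.309% of all genes. Of 21 negative regulators of TCR signalling 2 (9.52%) rose, SLA and DGKA. The median step of the 9 was 0.02 in the combination, 0.32 in anti-LAG3 and 0.10 in anti-PD1, against 0.23 in isotype. TRBV12-3, a variable segment of the TCR beta chain, had 90.9, 79.9 and 73.5 CPM at 1 µg/ml of the combination, anti-LAG3 and anti-PD1, against 52.9, 58.2 and 59.8 CPM at 0.01 µg/ml, and rose 1.43-fold. TRBC1, a constant segment of the same chain with a near-identical copy, TRBC2, also rose in the antibody arms (218, 224 and 197 CPM at 1 µg/ml, against 192, 179 and 167 CPM at 0.01 µg/ml). Its isotype step was larger, 202 CPM at 1 µg/ml and 142 at 0.01 µg/ml, and after subtracting it the step of TRBC1 was -0.26. In the TCR gamma locus TRGV7, TRGC2 and TRG-AS1 rose 1.93-fold, 1.64-fold and 1.49-fold, with isotype steps of 0.52, 0.02 and -0.04. The antibody steps of TRGV7 were 0.914 in the combination, 0.915 in anti-LAG3 and 0.934 in anti-PD1. DESeq2 did not call TRGV7 (adjusted p = 0.455 by DESeq2). TRG-AS1 is antisense to that locus, and without a stated strand setting its reads cannot be told from those of the gamma genes. TRBV12-3 was not called without anti-LAG3, TRGC2 only without anti-LAG3, and TRBC1, TRGV7 and TRG-AS1 only without the combination. With a length correction TRBV12-3 was not called either (adjusted p = 0.441 by edgeR's quasi-likelihood test).

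SLA, an adaptor that promotes turnover of the TCR complex, and DGKA, a kinase that removes the second messenger diacylglycerol, are the negative regulators that rose. SLA had 68.1, 47.3 and 47.8 CPM at 1 µg/ml of the combination, anti-LAG3 and anti-PD1, against 38.1, 37.6 and 31.8 CPM at 0.01 µg/ml, and rose 1.5-fold. DGKA had 47.4, 43.5 and 40.3 CPM at 1 µg/ml, against 34.5, 36.5 and 34.2 CPM at 0.01 µg/ml, and rose 1.24-fold. SLA was not called without anti-PD1 (adjusted p = 0.0981 by edgeR's quasi-likelihood test), and DGKA was called in none of the fits that left out an arm. Of the negative regulators 10 had upward steps in all 3 arms and none had downward steps in all 3, against 15.0% and 14.0% of all genes. Of 21 proximal TCR signalling genes none was called by edgeR's quasi-likelihood test or by DESeq2, with 3 at an unadjusted p under 0.05, and SIT1, an adaptor, came nearest with a step of 0.20 ± 0.06 (SE; adjusted p = 0.165 by edgeR's quasi-likelihood test).

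Like TRGV7 and ITM2A, COL6A3, a chain of collagen VI, had near-equal steps in the 3 arms. It had 4.73 CPM in the combination, 1.9 in anti-LAG3 and 2.22 in anti-PD1 at 1 µg/ml, against 1.18, 0.452 and 0.557 CPM at 0.01 µg/ml, with steps of 1.94, 1.91 and 1.87 and an isotype step of -0.31. Its fold was 4.03 (adjusted p = 0.000125 by edgeR's quasi-likelihood test), and the combination at 0.01 µg/ml was at a level near that of isotype (0.894 CPM at 1 µg/ml and 1.12 at 0.01 µg/ml). The anti-LAG3 (12 counts) and anti-PD1 (13 counts) libraries at 0.01 µg/ml lay below both isotype levels, so their steps start from a low base of few counts. FGFR1, a receptor tyrosine kinase, rose 1.61-fold, with 34.9, 23.2 and 23.7 CPM at 1 µg/ml of the combination, anti-LAG3 and anti-PD1, against 17.2, 16.9 and 16 CPM at 0.01 µg/ml. ETV5, an ETS factor known as a target of ERK signalling, had 20, 14 and 14.3 CPM at 1 µg/ml, against 9.97, 10.4 and 9.85 CPM at 0.01 µg/ml. Its low-dose libraries were alike and the isotype pair (11.1 CPM at 1 µg/ml and 12.2 at 0.01 µg/ml) ran the other way.

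SLC6A13, a GABA transporter gene, had 100, 21 and 27 counts at 1 µg/ml of the combination, anti-LAG3 and anti-PD1, against 7, 2 and 7 counts at 0.01 µg/ml, and its isotype counts of 10 at 1 µg/ml and 3 at 0.01 µg/ml also differed in that direction. PHEX, an endopeptidase gene of phosphate balance, had 118, 24 and 18 counts at 1 µg/ml, against 9, 9 and 5 counts at 0.01 µg/ml. DRP2, a relative of dystrophin, rose 2.79-fold, SYTL3, a vesicle trafficking gene, 3.04-fold, and C1orf228 3.07-fold. SYTL3 was called only with anti-LAG3 left out, as was PHEX. C1orf228 and DRP2 were not called without the combination.

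The remaining rises are named for completeness. GCNT4, a glycosyltransferase, rose 2.07-fold, UBXN10-AS1 2.02-fold and ETV4, the ETS relative of ETV5, 4.42-fold at levels under 1 CPM. PLCH1, a phospholipase C, ADCYAP1, which encodes the neuropeptide PACAP, DPF3, a chromatin factor, and TTC24 rose between 1.58-fold and 1.8-fold. TOX, an HMG factor of T cell development and exhaustion, had 106, 76.6 and 83.1 CPM at 1 µg/ml of the combination, anti-LAG3 and anti-PD1, against 73.5, 67.1 and 63.5 CPM at 0.01 µg/ml, and rose 1.29-fold, with an isotype step of 0.16 in the same direction. ITM2A, a membrane protein of thymocyte selection, rose 1.26-fold with steps of 0.33, 0.38 and 0.31 in the combination, anti-LAG3 and anti-PD1 and 0.20 in isotype. TOX was not called without anti-PD1, and UBXN10-AS1 and ETV4 were called only without the combination. NDFIP2, RTKN2, RGS3, CHI3L2, WSB2, JARID2, SDCBP, RAB8B, GMFG, ADAM10, ID3 and STT3B rose between 1.18-fold and 1.46-fold. Of all 56 calls, 12 were lost without the combination, 22 without anti-LAG3 and 29 without anti-PD1.

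RAG1 and RAG2, which together encode the recombinase that assembles antigen receptor genes and which overlap on chromosome 11, fell to less than 0.5 times, and were the 2 calls among 28 immature T cell and leukaemia genes. RAG1 lies at chr11:36510709-36593156 on the plus strand and RAG2 at chr11:36575574-36598279 on the minus strand, and without a stated strand setting reads of their overlap cannot be told apart. RAG1 had 1.84 CPM in the combination, 2.31 in anti-LAG3 and 2.4 in anti-PD1 at 1 µg/ml, against 4.59, 4.41 and 4.54 CPM at 0.01 µg/ml. Isotype had 4.94 CPM at 1 µg/ml and 4.77 at 0.01 µg/ml, so the low-dose antibody libraries and both isotype libraries were alike and the high-dose antibody libraries stood below all of them. The step was -1.05 ± 0.17 (SE; adjusted p = 0.00533 by edgeR's quasi-likelihood test). RAG2 had 1.88, 3.87 and 3.63 CPM at 1 µg/ml of the combination, anti-LAG3 and anti-PD1, against 6.71, 6.98 and 6.42 CPM at 0.01 µg/ml. Its step was -1.12 ± 0.18 (SE; adjusted p = 0.00655 by edgeR's quasi-likelihood test), with isotype at 5.98 CPM at 1 µg/ml and 5.86 at 0.01 µg/ml. The 2 calls were 7.14% of the list, against 0.0671% of all genes that fell. In the list as a whole the median step was -0.19. By arm it was -0.38 in the combination, -0.05 in anti-LAG3 and -0.06 in anti-PD1, against 0.05 in isotype. Of the 28 genes, 9 had downward and 5 upward steps in all 3 arms, against 14.0% and 15.0% of all genes.

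PTPRF, a receptor tyrosine phosphatase, ZNF280D, SMAD6, an inhibitor of BMP signalling, PRR12 and GALNT2, an enzyme that starts O-glycosylation, fell to between 0.673 and 0.854 times. SMAD6 and GALNT2 were called in none of the fits that left out an arm, and PTPRF, ZNF280D and PRR12 only without the combination. MKI67, the proliferation marker Ki-67, had 209, 143 and 140 CPM at 1 µg/ml of the combination, anti-LAG3 and anti-PD1, against 282, 178 and 156 CPM at 0.01 µg/ml, and fell to 0.81 times. Its arms differed more than its doses, and the isotype step of -0.24 was in the same direction. MKI67 was the 1 call among 46 cell cycle genes (2.17%, against 0.0671% of all genes that fell), whose median step was -0.04. SPEN, a transcriptional corepressor, fell to 0.825 times with an isotype step of -0.28, and its step minus the isotype step was 0.01. Neither was called without anti-LAG3.

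HIST1H4B, a replication-dependent histone H4 gene, was the 1 call among 23 such genes (4.35%, against 0.0671% of all genes that fell). It had 6, 10 and 12 counts at 1 µg/ml of the combination, anti-LAG3 and anti-PD1, against 26, 38 and 21 counts at 0.01 µg/ml, and 27 counts at 1 µg/ml and 21 at 0.01 µg/ml of isotype, and was not called without anti-LAG3. The median step of the list was -0.52 in the combination and -0.54 in anti-LAG3, against 0.01 in anti-PD1 and 0.13 in isotype. Messenger RNAs of these genes end without a poly(A) tail, and the labels give both polyA RNA, as the molecule, and total RNA, in the protocol, so how RNA was selected is not settled, and its part in the result was not tested.

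**Figure D3:**
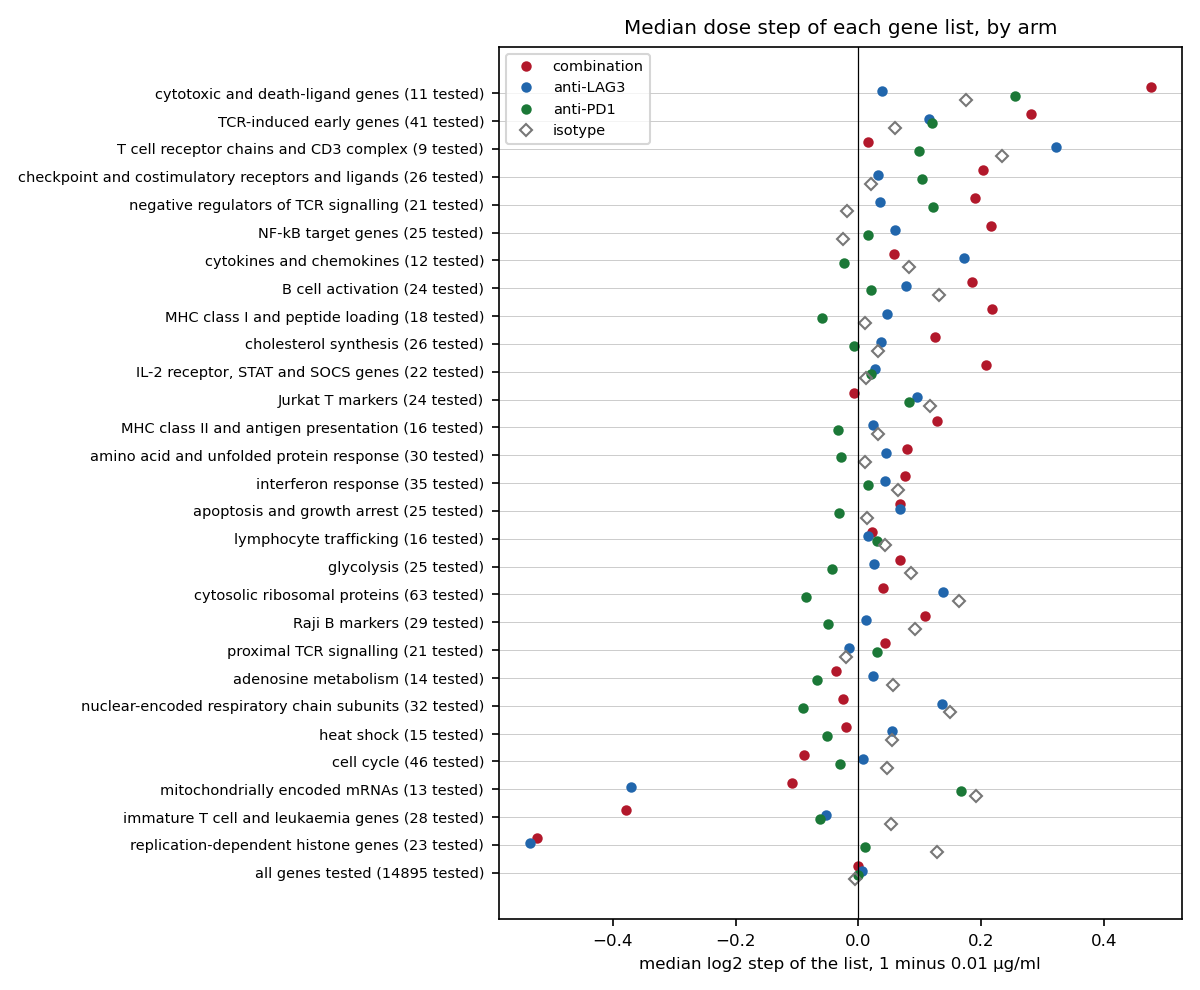
Median log2 CPM step, 1 minus 0.01 µg/ml, of each gene list by arm, with the number of genes tested in brackets, lists ordered by the median of the fitted antibody step and all genes tested at the bottom; filled points are antibody arms and open diamonds isotype. Cytotoxic and TCR-induced early genes lie to the right in the combination (0.48 and 0.28), immature T cell genes to the left (-0.38), and the medians of all genes at 0.

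No member was called by edgeR's quasi-likelihood test in the lists of IL-2 receptor, STAT and SOCS genes (22 tested), MHC class I (18), MHC class II (16), B cell activation (24), lymphocyte trafficking (16), apoptosis and growth arrest (25), cholesterol synthesis (26), heat shock (15), glycolysis (25), amino acid and unfolded protein response (30), mitochondrially encoded mRNAs (13), adenosine metabolism (14), respiratory chain subunits (32) and cytosolic ribosomal proteins (63). At an unadjusted p under 0.05 there were 9 IL-2 receptor, STAT and SOCS genes, 8 B cell activation genes, 7 cholesterol synthesis genes, 5 apoptosis and growth arrest genes and 0 to 2 in each of the other lists. DESeq2 called IL2RA of the IL-2 receptor list, and EGR1 and EGR3 (2.56, adjusted p = 0.00307 by DESeq2) of the B cell activation list. Among the nearest were HSF1, the master factor of the heat shock response (-0.20 ± 0.05, adjusted p = 0.0651), STAT5A, a factor downstream of IL-2 (0.62 ± 0.15, adjusted p = 0.0729), and SLC2A3, a glucose transporter (0.37 ± 0.09, adjusted p = 0.0825), each with its SE and by edgeR's quasi-likelihood test. Of 26 cholesterol synthesis genes 10 had upward steps in all 3 arms and none downward, against 15.0% and 14.0% of all genes. Of 63 ribosomal protein genes and 13 mitochondrially encoded genes none had the same sign in the 3 arms, against 28.9% of all genes. The ribosomal medians were 0.04 in the combination, 0.14 in anti-LAG3 and -0.09 in anti-PD1, against 0.16 in isotype.

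The libraries at 0.1 µg/ml, which the paired step did not use, lay between the 2 other doses in most called genes. This held in all 3 arms for 33 of the 56 (58.9%), against 845 of the 14895 tested (5.67%). By arm the middle library lay between in 51 of 56 in the combination (91.1%, against 43.6% of all genes), 47 in anti-LAG3 (83.9%, against 38.5%) and 41 in anti-PD1 (73.2%, against 30.4%). Such shares also depend on the size of the step, which the call used. In EGR1 the combination series was 19.7, 41.2 and 82.4 CPM at 0.01, 0.1 and 1 µg/ml, with 16.7, 31.5 and 52.1 CPM in anti-LAG3 and 16.2, 20.5 and 33.4 CPM in anti-PD1. CD69 was ordered by dose in all 3 arms too, with 13.6, 27.2 and 52.1 CPM in the combination. MKI67 and SPEN were between in none of the arms.

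With all 12 libraries, the slope on log10 dose of the antibody arms was set against the isotype slope. EGR1 and CD69 were among the clearest rises of this test: per 10-fold of dose, the mean antibody slope exceeded the isotype slope by 0.80 ± 0.07 (SE) for EGR1 (adjusted p = 1.07e-07) and by 0.79 ± 0.08 for CD69 (adjusted p = 9.00e-07), by edgeR's quasi-likelihood test. Of 15535 genes tested, 321 (2.07%) differed, 118 (0.760%) upward and 203 (1.31%) downward. CASC15, a long noncoding RNA gene (0.56), PRKCH, a protein kinase C (0.48), and LCP2, which encodes the TCR adaptor SLP-76 (0.49), made up the 5 clearest excess slopes with EGR1 and CD69. ADA, adenosine deaminase (-0.43), MYO7B, a myosin gene (-0.50), PPDPF (-0.37), POLR2L, a small subunit of RNA polymerases (-0.32), and PTMAP4, a pseudogene whose reads may come from its parent gene (-0.78), had the clearest deficits. In PPDPF the step from 0.01 to 1 µg/ml was -0.17 in the combination, -0.08 in anti-LAG3 and -0.02 in anti-PD1, against 0.64 in isotype.

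Among lists, 10 of 41 TCR-induced early genes had a slope above that of isotype and none below. Of 28 immature T cell genes, 6 had one below and none above. Over all genes 0.760% were above and 1.31% below. Of 63 ribosomal protein genes 15 were below and 1 above, and of 32 respiratory chain subunits 6 were below and 1 above, while their isotype levels themselves were higher at 1 µg/ml (medians of 0.16 and 0.15). The count rests on the isotype library at 1 µg/ml: without it 4 genes were called, against 123 without isotype at 0.01 µg/ml, and the combination arm matters as well (51 called without it). Without isotype at 1 µg/ml EGR1 kept its excess (0.93, adjusted p = 0.00163), CASC15 and PRKCH stayed called, and CD69 did not pass (0.57, adjusted p = 0.381), by edgeR's quasi-likelihood test. LCP2 did not pass either (0.42, adjusted p = 0.722), nor did any of the 5 clearest deficits: ADA (-0.34, adjusted p = 0.0881), MYO7B (-0.51, adjusted p = 0.142), and PPDPF (-0.24), POLR2L (-0.19) and PTMAP4 (-0.44), each with an adjusted p of 1 by edgeR's quasi-likelihood test.

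The size of the dose response differed between the arms. The combination's slope differed from the mean slope of the single antibodies in 184 genes (1.18% of 15535), 86 (0.554%) with the higher and 98 (0.631%) with the lower slope, by edgeR's quasi-likelihood test at an adjusted p under 0.05. The clearest was ADA, with 117 CPM in the combination, 281 in anti-LAG3 and 217 in anti-PD1 at 1 µg/ml, against 310, 321 and 295 CPM at 0.01 µg/ml. Its slope per 10-fold was lower in the combination by -0.55 ± 0.04 (SE; adjusted p = 9e-09 by edgeR's quasi-likelihood test). LCP2 went the other way, with 118, 51.4 and 48.8 CPM at 1 µg/ml of the combination, anti-LAG3 and anti-PD1, against 34.4, 32.6 and 32.1 CPM at 0.01 µg/ml (0.58 ± 0.06, adjusted p = 2.22e-06 by edgeR's quasi-likelihood test).

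LYST, a lysosomal trafficking gene, had 45 CPM in the combination, 12.2 in anti-LAG3 and 14.7 in anti-PD1 at 1 µg/ml, against 9.49, 9.43 and 9.16 CPM at 0.01 µg/ml. MYO7B had 82.2, 224 and 191 CPM at 1 µg/ml, against 275, 284 and 239 CPM at 0.01 µg/ml. In both genes the single arms had steps in the direction of the combination, and smaller ones. The excess slope of the combination was 0.37 ± 0.07 (SE; adjusted p = 0.00801) for CD69 and 0.36 ± 0.07 (adjusted p = 0.00335) for EGR1, by edgeR's quasi-likelihood test. The combination holds a full dose of each antibody and no isotype, so total blocking antibody and combination cannot be told apart. Leaving out the combination library at 1 µg/ml gave a count of 12, and leaving out that at 0.01 µg/ml 42. Leaving out anti-LAG3 gave 46 at 0.01 µg/ml and 88 at 1 µg/ml, and leaving out anti-PD1 at 1 µg/ml gave 83. With the combination at 1 µg/ml left out, ADA (-0.52) and MYO7B stayed called, while LCP2 (0.41, adjusted p = 0.136) and LYST (0.61, adjusted p = 0.144) did not, by edgeR's quasi-likelihood test.

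**Figure D4:**
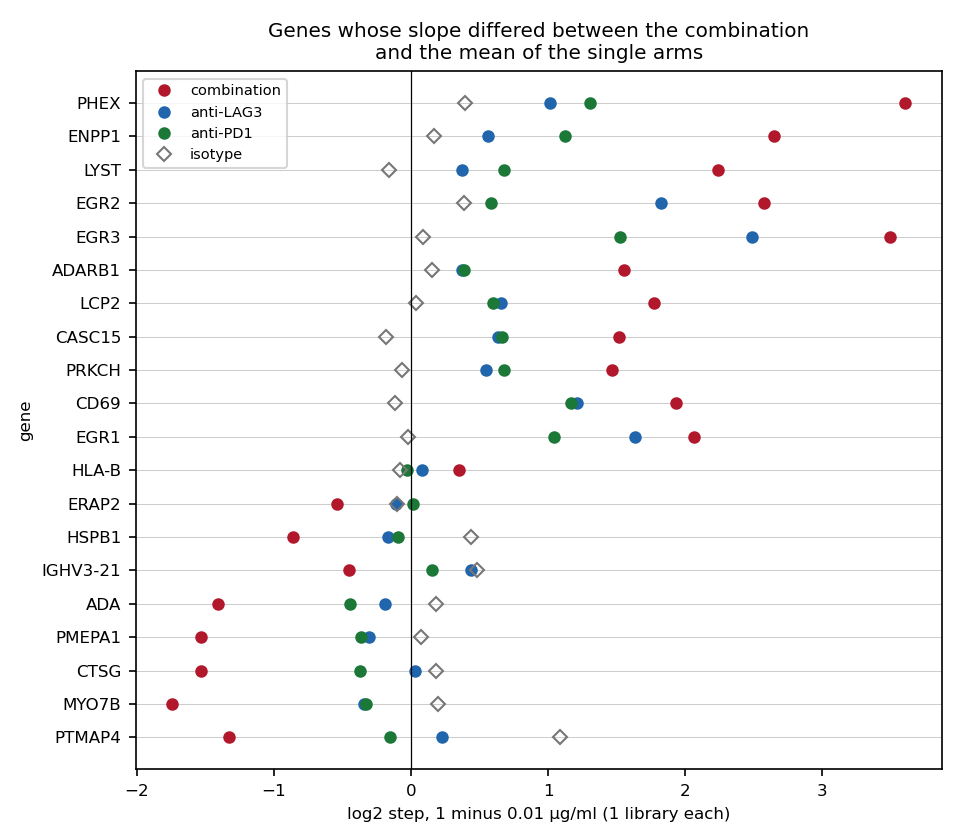
Log2 CPM step, 1 minus 0.01 µg/ml, by arm for 20 named genes whose slope differed between the combination and the mean of the single arms; filled points are antibody arms and open diamonds isotype, each from 1 library at each dose. Combination points lie outermost, with anti-LAG3 and anti-PD1 between them and 0 for most genes, as for CD69 (1.94, against 1.21 and 1.17).

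The anti-PD1 slope differed from the anti-LAG3 slope in 0 genes (0%) by edgeR's quasi-likelihood test, with 845 (5.44%) at an unadjusted p under 0.05, and in 1 gene by DESeq2. For EGR1 the anti-PD1 slope was lower by -0.27 ± 0.08 per 10-fold (SE; adjusted p = 0.691) and for CD69 the difference was -0.01 ± 0.09 (adjusted p = 0.997), by edgeR's quasi-likelihood test. The smallest p belonged to mitochondrial transcripts: MT-ND5, a subunit of complex I, had 2080 CPM in anti-PD1 and 1440 in anti-LAG3 at 1 µg/ml, and 1840 and 1950 CPM at 0.01 µg/ml (0.31, adjusted p = 0.146 by edgeR's quasi-likelihood test). The anti-LAG3 library at 1 µg/ml was the lowest of the 12 for MT-ND5. Leaving out the anti-LAG3 library at 0.01 µg/ml gave 11 calls, and leaving out that at 0.1 µg/ml gave 5.

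The balance of the cell lines is set beside these steps. The mean log2 CPM of 24 Jurkat T markers minus that of 29 Raji B markers was higher at 1 than at 0.01 µg/ml by 0.02 in the combination, 0.09 in anti-LAG3 and 0.22 in anti-PD1, against -0.02 in isotype. The mean over the 3 antibody arms was 0.11 ± 0.10 (SD, n = 3 arms; exact two-sided sign-flip permutation p = 0.25, the smallest that 3 pairs allow). With the median of the markers in place of the mean, the difference was -0.14 in the combination, 0.17 in anti-LAG3 and 0.10 in anti-PD1, against 0.17 in isotype, with a mean over the antibody arms of 0.04 ± 0.16 (SD, n = 3 arms; exact permutation p = 0.75). Summed T markers were 2197, 2188 and 2114 CPM at 1 µg/ml of the combination, anti-LAG3 and anti-PD1, against 1960, 2000 and 1869 CPM at 0.01 µg/ml, and 1981 CPM at 1 µg/ml and 1744 at 0.01 µg/ml of isotype. Summed B markers were 9215, 8465 and 8541 CPM at 1 µg/ml, against 8775, 8414 and 8812 CPM at 0.01 µg/ml, and 9329 CPM at 1 µg/ml and 8303 at 0.01 µg/ml of isotype. Among 24 T markers TRBC1 was the 1 call by edgeR's quasi-likelihood test (4.17%, against 0.309% of all genes that rose). Among 29 B markers and the 2 tested of 8 markers of other cells there was none by that test or by DESeq2. At an unadjusted p under 0.05 by edgeR's quasi-likelihood test there were 8 of the 24 T markers and 1 of the 29 B markers, against 7.90% of all genes. DESeq2 called 2 T markers, TRAC and TRBC1. With the marker difference as a covariate in a common slope over 3 doses, 28 of the 56 genes were called, against 46 in that slope without it.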

How the data were processed

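RNA of 12 co-culture libraries was sequenced, 1 for each of 4 antibody arms at 3 doses. The authors deposited raw read counts for 55782 gene symbols with a length in base pairs for each, per the file headers. The submitters' processing notes name build GRCh38, STAR 2.5.2b, Trimmomatic 0.36 and featureCounts (Subread 1.5.2), without settings. Strand, annotation release and multi-mapping settings are not given in the sources. Not used here were 4 count columns that match no sample and the authors' deposited comparison tables.

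Columns were matched to samples by the labels. Genes were kept by filterByExpr (minimum count 10), libraries were scaled by TMM, and the step from 0.01 to 1 µg/ml was tested in R 4.3.3 with edgeR 4.0.16, by the robust quasi-likelihood F test in a model of arm plus dose on 6 libraries, with 2 residual degrees of freedom and Benjamini-Hochberg adjustment over all 14895 genes tested; an adjusted p under 0.05 was called. The robust fit gives genes of outlying spread fewer degrees of freedom. Slopes on log10 dose were compared in a model of all 12 libraries with a slope for each arm, with 4 residual degrees of freedom and 15535 genes tested. Steps by arm are differences of log2 CPM with a prior count of 2. The arms pair the libraries by design, as the libraries at 1 and 0.01 µg/ml of an arm held the same antibodies. Deviations of same-arm libraries from their dose means correlated at 0.084 in the combination, 0.053 in anti-LAG3 and -0.003 in anti-PD1 across genes. Those of libraries from different arms correlated at -0.075 to 0.037, so the block rests on the design and not on shared deviations. Alternatives were DESeq2 1.42.0, other scaling, filters, models and left-out libraries.

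Genes named were CD69 and EGR1, the 12 largest rises and falls of at least 1 CPM on average, the 3 smallest p in each direction, the clearest members of each list and the clearest of each slope comparison. Other called genes are named for completeness, after their values were seen. The libraries, lists, rule and tests were chosen with earlier results of these data known. Gene positions come from GENCODE on GRCh38 and promoter sequences from RefSeq on GRCh38.p14.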

Additional observations from a re-analysis of the deposited data

Results flagged for a closer look

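Each value here is the slope of the combination on log10 dose minus the mean slope of the single antibodies, in log2 per 10-fold of dose, and each was picked out because edgeR's quasi-likelihood test of that difference passed after Benjamini-Hochberg adjustment. With 1 library at each dose and arm, the test rests on the spread around the slopes. Among genes of activation, the excess of the combination was 0.37 for CD69, 0.36 for EGR1, 0.65 for EGR3 and 0.71 for EGR2, with adjusted p-values of 0.00801, 0.00335, 0.0306 and 0.0306 by edgeR's quasi-likelihood test. For EGR2 and EGR3 this stands beside single-arm steps that were larger in anti-LAG3 (1.82 and 2.49) than in anti-PD1 (0.58 and 1.53). The anti-PD1 slope minus the anti-LAG3 slope was -0.61 for EGR2 (adjusted p = 0.83) and -0.46 for EGR3 (adjusted p = 0.869). Neither passed by edgeR's quasi-likelihood test.

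LCP2 (0.58), PRKCH (0.43), LYST (0.88), ADARB1 (0.60), an RNA editing enzyme, ENPP1 (0.90), an ectonucleotidase, CASC15 (0.44), PHEX (1.61) and HLA-B (0.16), an MHC class I heavy chain whose reads may be shared with its relatives, also had the steeper slope in the combination. The slope was lower in the combination for ADA (-0.55), MYO7B (-0.69), PMEPA1 (-0.58), which restrains TGF-beta signalling, CTSG (-0.66), a granule protease, the pseudogene PTMAP4 (-0.70), HSPB1 (-0.37), a small heat shock protein, ERAP2 (-0.24), a peptide-trimming protease, and the immunoglobulin segment IGHV3-21 (-0.38), a gene of the B cell line. In IGHV3-21 the arms moved in different directions, with 84.5 CPM in the combination, 116 in anti-LAG3 and 93.4 in anti-PD1 at 1 µg/ml, against 116, 85.3 and 84 CPM at 0.01 µg/ml. The isotype step was 0.48 for that gene and 1.09 for PTMAP4. Without the combination library at 1 µg/ml, the differences of LYST (0.61), LCP2 (0.41), ENPP1 (0.84), PRKCH (0.40), ADARB1 (0.31), PMEPA1 (-0.35) and CTSG (-0.49) no longer passed, and without that at 0.01 µg/ml that of IGHV3-21 (-0.29) did not.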

How the results depend on the processing

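Of 1262 values of single genes under an alternative, 931 kept their direction and their side of the threshold, 269 kept the direction but lost the call, 54 gained a call and 8 changed sign. Subtracting the isotype step gave 0.008 for SPEN, -0.261 for TRBC1, -0.073 for HLA-DRB5, -0.014 for CCR7 and -0.032 for HLA-DRB1; leaving out an arm gave -0.143 to 0.151 for COL1A1 and -0.158 to 0.01 for MT-ND3, and COL1A1 had -0.147 with the T minus B covariate. The cause was not tested.

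For the paired step, 56 genes were called (46 up, 10 down). With no replicate block, that is without the pairing by arm, 4 were called (3 up, 1 down). DESeq2 called 39 (36 up, 3 down), 28 of them among the 56, no filter on low counts 241 (163 up, 78 down), a common slope over 3 doses 117 (91 up, 26 down), the same with the T minus B covariate 102 (70 up, 32 down), and the step minus the isotype step 6 (1 up, 5 down). Genes of at least 10 CPM only, an alternative chosen after seeing the data, gave 20 (17 up, 3 down), with fewer genes tested. RLE scaling gave 63 and a length correction 47, of which 46 were among the 56. Those lost with the length correction included GZMA (adjusted p = 0.169) and TRBV12-3 (0.441), by edgeR's quasi-likelihood test. The median gene length was 4130 base pairs for the rises, 8189 for the falls and 4521 for all genes tested. Leaving out an arm gave 54 to 128 (37 to 94 up, 6 to 34 down).

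For the antibody slope minus the isotype slope, DESeq2 called 121 (38 up, 83 down), and leaving out a library or an arm gave 4 to 445 (4 to 183 up, 0 to 262 down). For the combination minus the single arms, DESeq2 called 86 (46 up, 40 down), and leaving out a library gave 12 to 231 (2 to 104 up, 10 to 127 down). For anti-PD1 minus anti-LAG3, DESeq2 called 1 (1 up), and leaving out a library gave 0 to 11 (0 to 10 up, 0 to 1 down). With 1 library at each dose and arm, calls rest on few degrees of freedom, and genes at or under 3 counts, such as XCL1 at 0.01 µg/ml, have no measurable low level.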

Other observations

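Several genes that were called in the paired step differ in level between the arms at the same low dose. COL6A3 had 1.18 CPM in the combination, against 0.452 CPM in anti-LAG3 and 0.557 CPM in anti-PD1 at 0.01 µg/ml, and MKI67 had 282 CPM in the combination, against 178 CPM in anti-LAG3 and 156 CPM in anti-PD1. RAG1, RAG2, IER3, FOS and GZMA had low-dose libraries that were close to each other in the 3 arms.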
